A study of Arabidopsis thaliana with 28 samples.

Results

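AP2/ERF and NAC proteins are plant transcription factor families named after their DNA-binding domains. AP2/ERF factors include the DREB and CBF proteins of the cold and drought response, the ERF proteins of ethylene and jasmonate signalling, and regulators of meristems and flowering. NAC factors act in stress, senescence and organ formation, and some are held at a membrane by an anchor and enter the nucleus once released from it. Transcripts of both families were followed here in shoots and roots of Arabidopsis thaliana after UV-B, ultraviolet light of short wavelength.

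Members were all probe sets matched to exactly 1 gene whose symbol begins with ERF, DREB, CBF, RAP2 or NAC followed by a digit, dot or letter. A probe set is the group of array probes that reports on a transcript. Of 22746 probe sets, 13513 matched 1 gene, and only 1 met this rule, NAC014 (AT1G33060), a NAC factor with a predicted membrane anchor. No AP2/ERF probe set met it, and 1 more carried a family symbol beside another gene and was therefore no member. The reference annotation holds 39 AP2/ERF and 79 NAC symbols of this form, 118 in all, so 1 of these genes is described and the others are not analysed here. The AP2/ERF family is described through 8 probe sets of genes with other symbols, taken from a list of 72 loci that was compiled from general knowledge and is not the whole family. None of the 76 loci of the matching NAC list was named by the annotation used, so nothing below describes the NAC family beyond NAC014. In that annotation 8730 probe sets matched no gene, so the array may still hold probe sets for loci not named here.

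All plants were of the accession Col-0. At 16 days of age, 3 h into a 16 h light period, they received UV-B at 1.18 W/m2 for 15 min. The labelled times of sampling were 0.25, 0.5, 1, 3, 6, 12 and 24 h for shoots and for roots alike. Each of the 14 groups so formed had 2 arrays, which makes 28. Every group had received UV-B, and no array of untreated plants was analysed here. The 0.25 h arrays of the same tissue were the reference, so a change complete by then does not show, and the samples of 3 h to 12 h also differ from it in time of day. The labels do not say whether replicates came from separate plants, so the p-values rest on a spread between samples that may be technical alone.

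Values are MAS5 signals, a linear brightness per probe set. Median signals lay between 36.7 and 39.0 on shoot arrays and between 44.3 and 47.4 on root arrays, and replicates correlated at 0.978 to 0.994 across probe sets. The 4 shoot markers named by the annotation (RCA, LHCB4.1, LHCB4.2 and PSAN, all of photosynthesis) had signals of 1780 to 6800 in shoots and 22.5 to 223 in roots. None of the 8 root markers was named by it. Fewer cells of a type and less RNA per cell cannot be told apart in such samples.

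The first question was how NAC014 moved after the exposure in shoots. NAC014 fell to its lowest level at 1 h, was still lower at 3 h, and had a level near the starting one at 24 h. The mean signal was 42.8 ± 8.09 (SD, n = 2) at 0.25 h, 23.9 ± 1.26 at 1 h and 44.3 ± 0.125 at 24 h. Changes below are log2(signal + 9.58) differences, which understate the changes of dim transcripts.

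In shoots the 2 arrays of NAC014 read 37.0 and 48.5 at 0.25 h, 29.8 and 36.7 at 0.5 h, and 23.1 and 24.8 at 1 h. They read 23.6 and 35.4 at 3 h, 33.9 and 39.5 at 6 h, 34.7 and 40.6 at 12 h, and 44.2 and 44.4 at 24 h. Both arrays at 0.5 h, 1 h and 3 h lay below both arrays at 0.25 h, while those at 6 h, 12 h and 24 h overlapped them. Ordered by mean, the times ran from 24 h through 0.25, 12, 6, 0.5 and 3 h down to 1 h, and each neighbouring pair in that order overlapped.

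**Figure D1:**
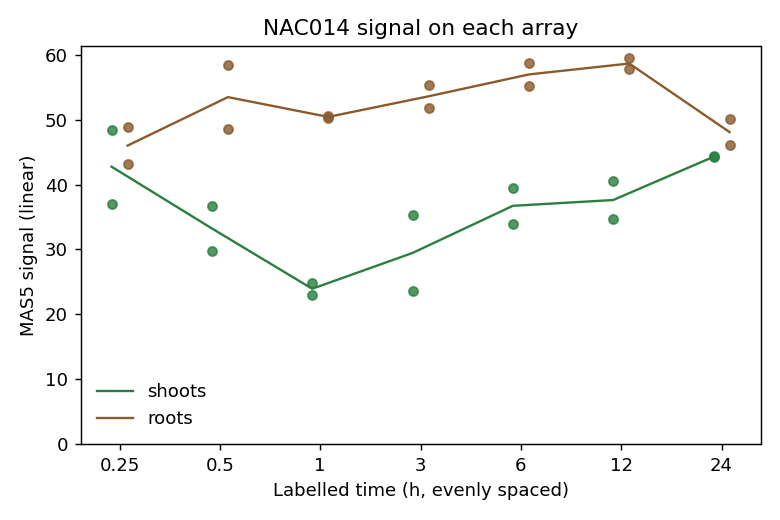
NAC014 signal (linear MAS5 scale) on each array against labelled time, spaced evenly, in shoots (green) and roots (brown). Points are arrays and lines join the means of 2 arrays; the shoot line is lowest at 1 h, at 23.9, and every root array lies at 43.2 or above.

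NAC014 fell by 0.63 ± 0.14 at 1 h (log2 ± SE, n = 2 against 2, a 1.55-fold difference; limma adjusted p = 0.00167). In that comparison 14% of 14806 probe sets tested were called lower, with a median change of -0.02 over all of them. At 3 h it fell by 0.43 ± 0.14 (limma adjusted p = 0.0140), where 27.5% were called lower. The 3 h call rested on single arrays. Without replicate 1 of 0.25 h the change was -0.27 (adjusted p = 0.184), without replicate 1 of 3 h -0.21 (0.296), and with shoots fitted alone it stayed at -0.43 but missed the threshold (0.0530).

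The other times were not called in shoots. The change at 0.5 h was -0.29 ± 0.14 (limma adjusted p = 0.184), and its 95% interval ran from -0.58 to 0.01. At 6 h and 12 h the changes were -0.17 and -0.14. In these comparisons 14% of probe sets were called in either direction at 0.5 h, 63.2% at 6 h, 45.8% at 12 h and 25.8% at 24 h. At 24 h the change was 0.05, with an interval from -0.24 to 0.34. Across the 7 shoot times the moderated F test of limma called a change of NAC014 (adjusted p = 0.00145), as it did for 85.8% of all probe sets tested.

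In roots NAC014 passed the test at no time, while the share of probe sets called in either direction was 9.74% at 0.5 h, 12.6% at 1 h, 23.2% at 3 h, 15.8% at 6 h, 21.3% at 12 h and 14.3% at 24 h. Its signals there were 43.2 and 48.8 at 0.25 h, 48.6 and 58.4 at 0.5 h, 50.3 and 50.5 at 1 h, and 51.8 and 55.4 at 3 h. Later they were 55.2 and 58.8 at 6 h, 57.8 and 59.5 at 12 h, and 46.1 and 50.0 at 24 h. Both arrays lay above both 0.25 h arrays at 1, 3, 6 and 12 h, and the ranges overlapped at 0.5 h and 24 h. From the highest mean to the lowest, the times were 12, 6, 3, 0.5, 1, 24 and 0.25 h, and of the neighbouring pairs only 1 h and 24 h did not overlap.

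The greatest root difference was 0.30 ± 0.14 at 12 h (limma adjusted p = 0.141), with an interval from 0.01 to 0.59, and it was called with roots fitted alone (0.0442). At 1 h the difference was 0.11, with an interval from -0.18 to 0.40. The moderated F test over all root times gave an adjusted p of 0.420, while 53.5% of all probe sets were called by it.

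**Figure D2:**
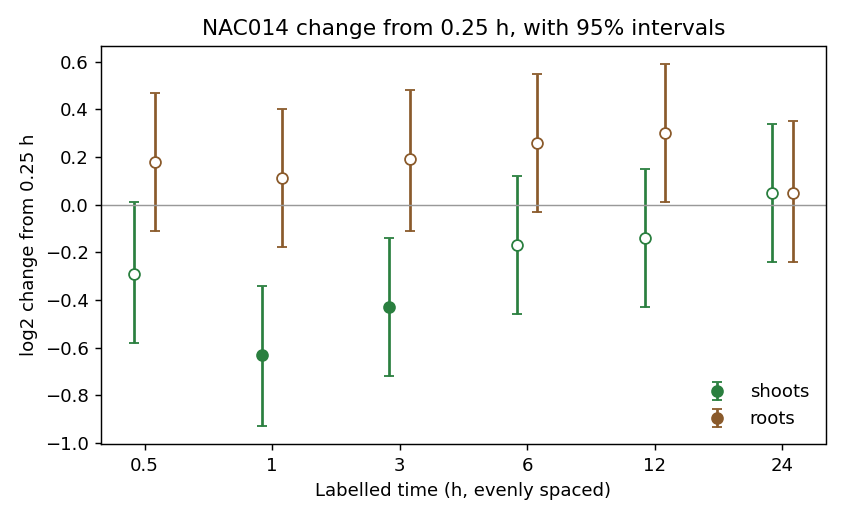
Change of NAC014 from 0.25 h (log2 scale) at 6 times in shoots (green) and roots (brown), with 95% intervals; filled points passed the test at an adjusted p under 0.05. The filled points are shoots at 1 h (-0.63) and 3 h (-0.43).

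The second question was whether the time course of NAC014 differed between tissues, tested as the change in shoots minus the change in roots. It did over all times by limma's moderated F test (adjusted p = 0.0114), a test that also called 72.2% of all probe sets. At 1 h the difference was -0.75 ± 0.20 (limma adjusted p = 0.0135), and 7.03% of probe sets were called in that direction. At 3 h it was -0.62 ± 0.20 (limma adjusted p = 0.0190), with 18.8% called. At 0.5, 6 and 12 h it was -0.46, -0.43 and -0.44 and not called (adjusted p = 0.179, 0.0785 and 0.108), and at 24 h it was 0.00.

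Single arrays decided both calls. Without shoot replicate 1 of 0.25 h the differences were -0.59 at 1 h (adjusted p = 0.0712) and -0.46 at 3 h (0.1). Without root replicate 1 of 0.25 h they were -0.67 (0.0599) and -0.54 (0.0729). The 3 h difference was also lost without shoot replicate 1 of 3 h (-0.40, 0.146) and root replicate 2 of 3 h (-0.58, 0.0646).

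Across all times NAC014 was lower in shoots, where its signal ran from 23.1 to 48.5 with a median of 36.0, than in roots, where it ran from 43.2 to 59.5 with a median of 51.2. The ranges overlapped. The mean difference was -0.48 ± 0.05 (limma adjusted p = 1.59e-08), while the median over all probe sets was -0.28 and 59.9% were called lower in shoots. After quantile normalization between all arrays the NAC014 difference was -0.26 (adjusted p = 7.49e-05). NAC014 lay above its own array's median on 7 of 14 shoot arrays and 13 of 14 root arrays.

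The summed signal of the 4 shoot markers was 21100 at 0.25 h in shoots, 20800 at 1 h and 15400 at 3 h. It was 12800 at 6 h, 12300 at 12 h and 17200 at 24 h, and in roots it stayed between 252 and 509 on each array. Its part in the changes of NAC014 and of the AP2/ERF genes below was not tested.

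Among the AP2/ERF genes, 3 of 8 passed the filter on dim probe sets, which asked for a signal above the array's median on at least 2 arrays. They were ORA47 (AT1G74930), a jasmonate-induced factor of the DREB branch, tny (AT5G25810, also called TINY), a DREB factor linked to growth and stress, and LEP (AT5G13910, LEAFY PETIOLE), an ERF factor linked to leaf development. ORA47 was highest at 0.25 h in shoots and was below that level at every later time, lowest at 12 h. The gene tny was low in shoots and rose in roots from its 0.25 h level by 12 h. LEP rose briefly at 0.5 h in shoots and was lower at 12 h in both tissues. Each of the 3 passed the moderated F test of limma over shoot times and over root times, which also called 85.8% and 53.5% of all probe sets.

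ORA47 read 137 and 183 in shoots at 0.25 h, 39.4 and 59.9 at 0.5 h, 40.3 and 45.9 at 1 h, and 36.8 and 37.6 at 3 h. It then read 12.4 and 20.5 at 6 h, 8.23 and 12.3 at 12 h, and 19.3 and 25.2 at 24 h. Every later shoot array lay below both 0.25 h arrays. It fell by 1.53 ± 0.20 at 0.5 h (limma adjusted p = 2.30e-05), by 3.09 ± 0.20 at 12 h (2.52e-11) and by 2.41 ± 0.20 at 24 h (6.65e-09). The shares of probe sets called lower in these comparisons were 6.33%, 20.2% and 11.4%, and at 6 h, where ORA47 fell by 2.71, the share was 31.6%. At 24 h, about the same hour on the next day, its level was 5.31-fold below that at 0.25 h on the scale with the pseudocount added.

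In roots ORA47 was dimmer, above its array's median on 0 of 14 arrays. It read 25.2 and 27.2 at 0.25 h and 23.3 and 25.3 at 0.5 h, which overlapped, and between 7 and 15.5 from 1 h on. It fell by 0.69 ± 0.20 at 1 h (limma adjusted p = 0.0227) and by 0.97 ± 0.20 at 24 h (0.00166), where 6.29% and 7.26% of probe sets were called lower. Leaving out an array ended several of these calls. The 1 h root call ended without replicate 1 (-0.65, adjusted p = 0.131) or 2 (-0.73, 0.0745) of 0.25 h or replicate 2 of 1 h (-0.54, 0.240). The 3 h root fall (-0.72) ended without replicate 1 of 0.25 h (0.0742) or of 3 h (-0.51, 0.164), and the 6 h fall (-0.80) without replicate 1 of 0.25 h (0.0572) or of 6 h (0.0657).

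The ORA47 change differed between tissues at every time, from -0.99 ± 0.28 at 1 h to -2.20 ± 0.28 at 12 h (limma adjusted p = 0.0195 and 4.36e-06). The share of probe sets called in that direction was 2.74% at 0.5 h, where the ORA47 difference was -1.45, 13.2% at 12 h and 6.03% at 24 h. Without a pseudocount the differences at 0.5, 1, 3 and 24 h were not called (adjusted p = 0.0605, 0.301, 0.126 and 0.101). The 1 h difference was also lost without shoot replicate 2 of 0.25 h (0.0883), root replicate 2 of 0.25 h (0.0612), shoot replicate 1 of 1 h (0.0595) or root replicate 1 of 1 h (0.0938). ORA47 passed the filter only through the shoot arrays of 0.25, 0.5 and 1 h, where it was high, so neither its level nor the tissue test is independent of that filter. Fitted without the filter, the difference was -0.99 at 1 h (limma adjusted p = 0.0249) and -2.20 at 12 h (6.13e-06), and root signals from 1 h on lay near the pseudocount.

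**Figure D3:**
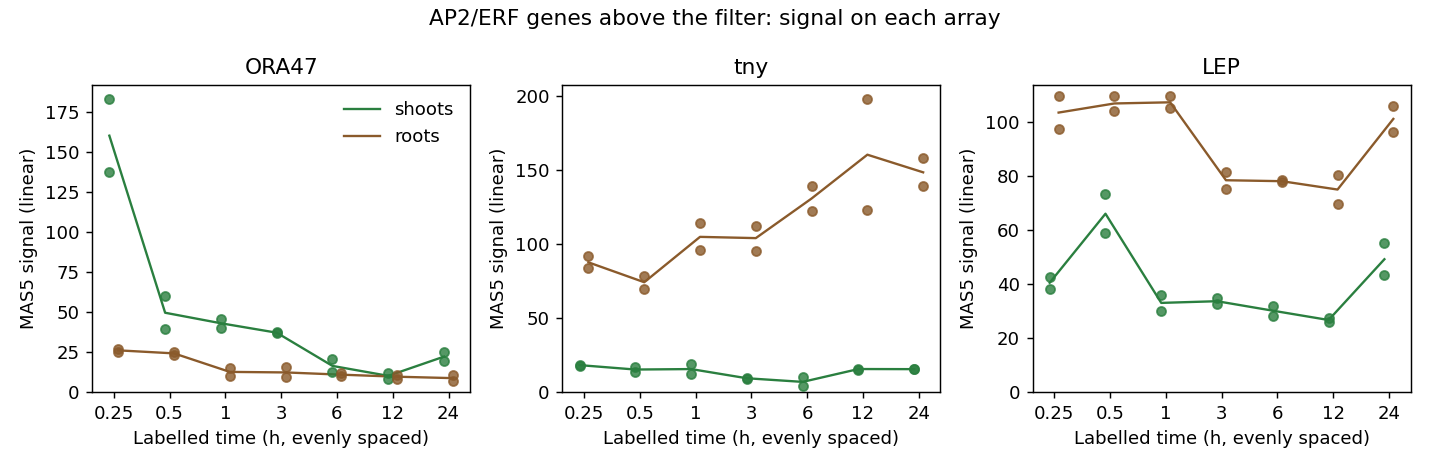
Signals (linear MAS5 scale) of ORA47, tny and LEP on each array against labelled time, spaced evenly, in shoots (green) and roots (brown); lines join means of 2 arrays and each panel has its own vertical scale. ORA47 starts at a mean of 160 in shoots, tny reaches 160 in roots at 12 h, and LEP reaches 66.0 in shoots at 0.5 h.

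The tny probe set read between 69.7 and 198 in roots, with a median of 113, and between 3.89 and 19.1 in shoots, and it passed the filter through roots alone. Its root arrays read 83.5 and 91.7 at 0.25 h, 69.7 and 78.6 at 0.5 h, 95.6 and 114 at 1 h, and 95.6 and 112 at 3 h. They read 122 and 139 at 6 h, 123 and 198 at 12 h, and 139 and 158 at 24 h, so all root arrays from 1 h on lay above both 0.25 h arrays.

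Root tny rose by 0.77 ± 0.18 at 12 h (limma adjusted p = 0.00462) and by 0.70 ± 0.18 at 24 h (0.0127), where 11.5% and 7.08% of probe sets were called higher. Leaving out replicate 1 of 12 h ended the 12 h call (0.45, adjusted p = 0.136). Leaving out replicate 2 of 0.25 h (0.64, 0.0999) or of 24 h (0.61, 0.126) ended the 24 h call. Without a pseudocount neither passed (0.0662 and 0.121). In shoots, at signals near the pseudocount, tny fell by 0.55 ± 0.18 at 3 h and 0.78 ± 0.18 at 6 h (limma adjusted p = 0.0159 and 9.14e-04). The 3 h call ended without either 0.25 h replicate (0.0590 and 0.0504), without replicate 1 of 3 h (0.0809) and with a pseudocount at the median signal (-0.23, 0.108). The F test over shoot times was lost with that pseudocount (0.182) and without replicate 2 of 6 h (0.0598).

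The change of tny in shoots minus that in roots was -1.30 ± 0.26 at 6 h (limma adjusted p = 2.93e-04), beside 23.9% of probe sets called in that direction. It was also called at 3, 12 and 24 h (-0.77, -0.91 and -0.85; limma adjusted p = 0.0240, 0.0116 and 0.0355). The 3 h difference missed the threshold without shoot replicate 1 of 0.25 h (0.0504), root replicate 2 of 0.25 h (0.0751), shoot replicate 1 of 3 h (0.0691) or root replicate 1 of 3 h (0.0949), and with a pseudocount at the median signal (-0.40, 0.0616). The 12 h difference missed it without root replicate 1 of 12 h (-0.59, 0.0970). The 24 h difference missed it when any 1 of the 8 arrays involved was left out (adjusted p from 0.0555 to 0.122). Without a pseudocount neither the 12 h nor the 24 h difference was called (0.0838 and 0.161). As tny entered the fit through roots alone and its shoot signals lay near the pseudocount, these differences depend on that filter and scale, and on the fit without the filter they were -1.30 at 6 h (0.000454) and -0.85 at 24 h (0.0491).

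LEP read 38.2 and 42.7 in shoots at 0.25 h, 58.8 and 73.2 at 0.5 h, 30.0 and 36.1 at 1 h, and 32.5 and 34.8 at 3 h. It read 28.2 and 32.1 at 6 h, 26.0 and 27.4 at 12 h, and 43.3 and 55.1 at 24 h. The shoot arrays at 0.5 h and 24 h lay above both 0.25 h arrays and those from 1 h to 12 h below them. It rose by 0.59 ± 0.12 at 0.5 h (limma adjusted p = 0.00197), where 7.72% of probe sets were called higher, and without replicate 1 of 0.5 h the rise was 0.45 and missed the threshold (0.0588). It fell by 0.46 ± 0.12 at 12 h (0.00307). The fall at 6 h (-0.33, 0.0190) missed the threshold without replicate 1 of 0.25 h (0.120) or of 6 h (0.133) and with shoots fitted alone (0.0685).

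In roots LEP read 97.3 and 109 at 0.25 h, between 104 and 109 at 0.5 h and 1 h, between 69.7 and 81.5 from 3 h to 12 h, and 96.3 and 106 at 24 h. All arrays from 3 h to 12 h lay below both 0.25 h arrays. It fell by 0.36 ± 0.12 at 3 h and at 6 h and by 0.42 ± 0.12 at 12 h (limma adjusted p = 0.0330, 0.0411 and 0.0156), beside 11.3%, 7.9% and 9.79% of probe sets called lower. None of these calls held without replicate 1 of 0.25 h (adjusted p = 0.218, 0.241 and 0.150). The 3 h call also ended without either 3 h replicate (0.0713 and 0.204), and the 12 h call without replicate 2 of 12 h (0.141). The 6 h call ended without replicate 2 of 0.25 h (0.0639), either 1 h replicate (0.0509 and 0.0508) or either 6 h replicate (0.137 and 0.173), without a pseudocount (0.0607) and without the filter (0.0556). The LEP time course differed between tissues by limma's moderated F test (adjusted p = 0.00611), with a difference of 0.54 ± 0.17 at 0.5 h that was not called (0.0582).

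The other 5 AP2/ERF genes, BBM, PUCHI, SMZ, SNZ and SHN3, did not pass the filter, and tests of them come from a fit of all 22746 probe sets without it. BBM (AT5G17430, BABY BOOM), a factor of embryos and root meristems, read 20.4 to 38.7 in roots and 0.541 to 1.91 in shoots. PUCHI (AT5G18560), known from lateral root initiation, read 18.1 to 46.8 in roots and 5.30 to 24.4 in shoots. SMZ (AT3G54990) and SNZ (AT2G39250), closely related repressors of flowering, went opposite ways between tissues. SMZ read 27.4 to 47.1 in roots and 6.41 to 26.1 in shoots, and SNZ 0.644 to 7.03 in roots and 16.7 to 36.1 in shoots. SHN3 (AT5G25390), a regulator of cuticle lipids, stayed at or under 9.16 in both tissues.

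BBM in shoots, SNZ in roots and SHN3 in both tissues read below the pseudocount of 9.58, and PUCHI and SMZ in shoots near it, so no fold between tissues is given for these 5 genes. In the fit without the filter, BBM rose in roots at 1 h and 12 h from its 0.25 h level (0.50 and 0.45, limma adjusted p = 0.0203 and 0.0270), with 31.8 and 38.7 at 1 h against 20.9 and 23.3. SMZ rose in shoots at 1 h (0.69, 0.0113), with 24.5 and 26.1 against 7.23 and 18.1. The shares called in either direction in these comparisons, without the filter, were 8.29%, 13.7% and 18% of probe sets. In the same fit the PUCHI change in shoots minus that in roots was -0.78 at 12 h (limma adjusted p = 0.0389), beside 16.5% called in either direction. Its shoot signals lay near the pseudocount. None of these calls was tried with an array left out.

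**Figure D4:**
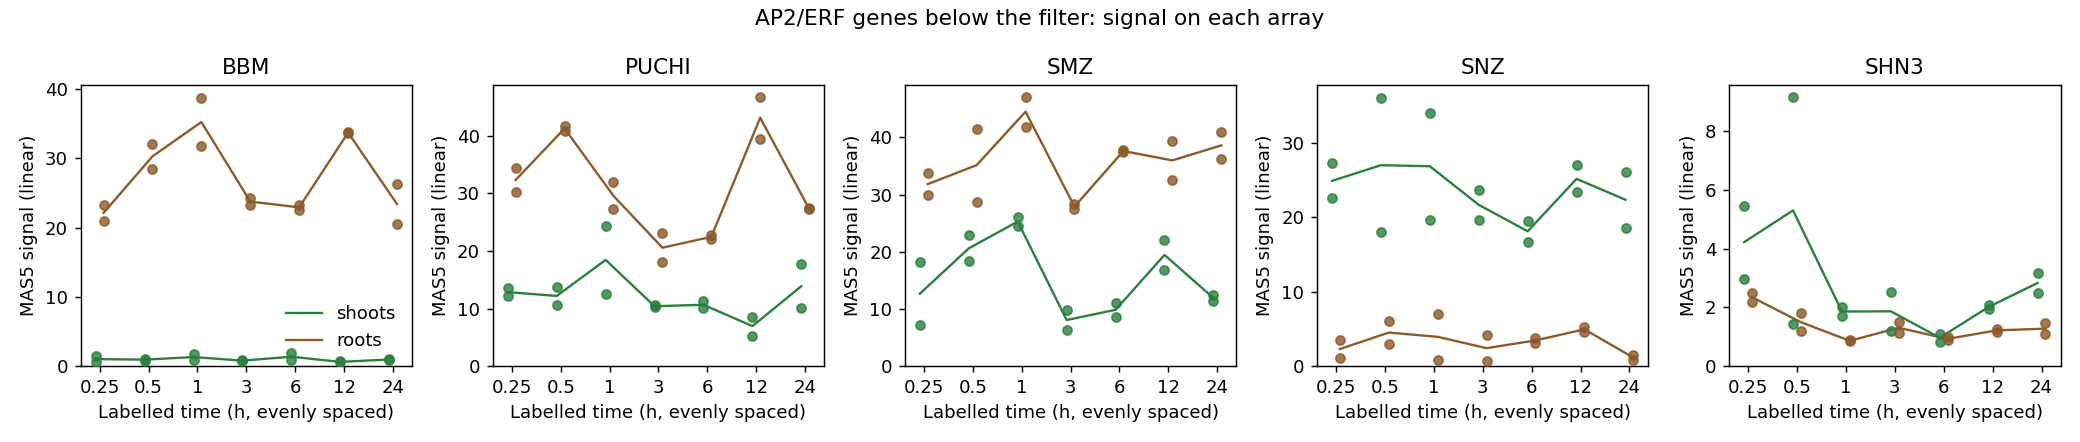
Signals (linear MAS5 scale) of BBM, PUCHI, SMZ, SNZ and SHN3, which did not pass the filter, on each array against labelled time, spaced evenly, in shoots (green) and roots (brown); lines join means of 2 arrays and each panel has its own vertical scale. BBM, PUCHI and SMZ are higher in roots and SNZ is higher in shoots at every time.

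Genes known as targets or regulators of these families were read from lists of the same kind. These lists were chosen with earlier results of these data known, so counts of their genes are not independent of the data. Of 12 CBF and DREB target genes, 3 were named, and 3 of 3 rose in shoots at 1 h, with a median change of 2.54 against -0.02 over all probe sets and 12.7% called higher. COR15A (2.92 ± 0.28) and COR15B (2.54 ± 0.25) encode related proteins that protect the chloroplast in the cold, and COR47 (0.78 ± 0.14) is a dehydrin. At 3 h COR15A and COR15B were still higher (2.29 and 1.73) while COR47 fell by 0.46, a call that ended without replicate 2 of 0.25 h (-0.33, adjusted p = 0.108) or replicate 1 of 3 h (-0.31, 0.138). At 6 h 3 of 3 were called higher in shoots, beside 31.6% of probe sets. The changes were 1.61 for COR15B, 0.90 for COR15A and 0.55 for COR47 (limma adjusted p = 7.68e-06, 0.00807 and 0.00128). Without a pseudocount the COR15A call at 6 h missed the threshold (1.10, limma adjusted p = 0.197). The COR15A change was 0.59 without replicate 2 of 0.25 h and 0.81 without replicate 1 of 6 h. At 12 h COR15B was 2.53 above its 0.25 h level (limma adjusted p = 2.92e-08), beside 25.5% called higher, while COR15A differed by -0.07 (0.856). In roots 1 of the 3 rose at 1 h, COR47 (0.82 ± 0.14), beside 6.29% called higher, and COR15A and COR15B lay below the array median on every root array. Both passed the filter through shoots alone, COR15B only through arrays of 0.5 to 12 h. Neither the counts of 3 in shoots nor the contrast with roots is therefore independent of that filter. COR47 was also called higher in roots at 3, 6 and 24 h (0.80, 0.60 and 0.73), beside 11.9%, 7.88% and 7.08% of probe sets. Its root calls at 6 h and 24 h and the COR15B call at 12 h were not tried under other settings or with an array left out. The 3 named of 8 genes of ethylene and jasmonate defence were the thionin THI2.1 and a pair of near-identical defensin genes that the array may not separate. Their 0.25 h shoot arrays were far apart, at 623 and 1459 for PDF1.2b and at 273 and 1184 for PDF1.2. PDF1.2b and PDF1.2 were lower in shoots at 1 h (-4.83 ± 0.33 and -4.29 ± 0.53, limma adjusted p = 4.02e-09 and 1.19e-05), beside 14% of probe sets called lower. Leaving out 1 of the 0.25 h arrays gave -4.22 and -5.43 for PDF1.2b and -3.26 and -5.33 for PDF1.2. At 12 h they differed from 0.25 h by 0.52 and 0.31 and were not called (0.211 and 0.670). At 1 h THI2.1 differed by -0.20 ± 0.48 (limma adjusted p = 0.802). At 12 h, unlike the defensin genes, it was called lower in shoots (-1.62 ± 0.48, limma adjusted p = 0.0096), beside 20.2% of probe sets called lower. Its arrays then read 11.4 and 17.3, against 49.6 and 80.9 at 0.25 h. THI2.1 passed the filter through 7 of 14 shoot arrays and no root array, with both 0.25 h arrays among them and neither of 12 h. Its 12 h call is therefore not independent of that filter, and was not tried under other settings or with an array left out.

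EIN3, the main transcription factor of ethylene signalling and the only named gene of 19 in its list, rose in shoots by 0.43 ± 0.10 at 3 h and 0.72 ± 0.10 at 6 h (limma adjusted p = 7.30e-04 and 1.16e-06), beside 23.6% and 31.6% called higher. Its root change at 6 h was 0.22 ± 0.10 (0.139). Of the mitochondrial stress genes controlled by the membrane-bound NAC013 and NAC017, 4 of 7 were named. In shoots 4 of 4 rose at 3 h, with a median change of 3.70 against -0.06 over all probe sets and 23.6% called higher. Among them, AT5G09570 passed the filter only through shoot arrays of 3, 6 and 12 h, where it was high. Its part in that count is therefore not independent of the filter. AT2G21640, with the largest F statistic of the list in both tissues, rose at 3 h by 4.64 in shoots and by 3.63 in roots. AT5G51440, a mitochondrial heat shock protein, rose at 3 h by 4.86 ± 0.17 in shoots and by 2.42 ± 0.17 in roots. NDB2 rose at 3 h by 2.76 in shoots and by 0.91 in roots. In roots 3 of 4 rose at 3 h, beside 11.9% called higher. No gene was named of the lists for low oxygen, for dehydration and senescence and for regulators of CBF genes.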

How the data were processed

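The deposited values were linear intensity signals, with 1 value for each probe set on an array. Per the submitters' processing notes they were made with MAS5, and its version, settings and detection calls are not given in the sources used here. The trimmed mean, without the lowest and highest 2%, lay between 99.2 and 99.4 on every array of the deposited signals, so arrays share a scale. Of 22810 probe sets, 64 controls were left out. Of the other 22746, 13513 matched 1 gene, 503 several and 8730 none in the annotation table, and symbols were updated by gene identifier.

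Signals were analysed as log2(signal + 9.58), the 25th percentile being the pseudocount. The filter kept 14806 probe sets. One limma 3.58.1 model (R 4.3.3) with 14 group means was fitted to 28 arrays, with eBayes trend and robust options. P-values were 2-sided and adjusted by Benjamini-Hochberg within each comparison, with calls under 0.05. Tested on simulated data for shoots at 1 h (14806 probe sets), it recovered 91% of 100 changes of 1 and 62% of 100 changes of 0.6 on the log2 scale. There were 11 false calls. Only those changes were simulated, while 26.7% of probe sets were called in the real comparison, so recovery in the real data may differ. The number of arrays limits the precision.

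A member was described array by array if it changed at least 2-fold against 0.25 h or had the largest called tissue difference of its family, and NAC014 met the second condition. The AP2/ERF genes that passed the filter were described array by array whether or not they met a condition. From the other lists up to 3 genes per tissue were named by the F statistic, and the dim AP2/ERF genes were named to account for theirs. AT5G09570 was named outside that rule, for how it passed the filter. The members and lists were chosen with earlier results of these data known. The alternatives tried changed the pseudocount, scaling, filter, tissues fitted, moderation and replicate block, or left out 1 array. No protein, promoter or probe sequence was used here.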

Additional observations from a re-analysis of the deposited data

Results flagged for a closer look

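Among the genes of both families that passed the filter, the change from 0.25 h differed between shoots and roots at single times for NAC014, ORA47 and tny, by a test of the difference itself. Values are the log2 change in shoots minus that in roots. For NAC014 it was -0.75 at 1 h and -0.62 at 3 h, with lower levels in shoots and no called change in roots. For ORA47 it was -1.45 at 0.5 h, -0.99 at 1 h, -1.13 at 3 h, -1.91 at 6 h, -2.20 at 12 h and -1.44 at 24 h, from a 0.25 h mean signal of 160 in shoots and 26.2 in roots. For tny it was -0.77 at 3 h, -1.30 at 6 h, -0.91 at 12 h and -0.85 at 24 h, with shoot signals near the pseudocount of 9.58. ORA47 entered the fit only through shoots and tny only through roots, the tissue where each is high, so these tests are not independent of the filter on dim probe sets. The calls that were lost with a left-out array or another pseudocount are given with these genes above.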

How the results depend on the processing

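No AP2/ERF probe set met the symbol rule, so the planned counts of AP2/ERF members had no value under any setting, and counts of NAC members are given as the NAC014 change. At the filter at the 75th percentile NAC014 was not kept, so that setting gave no value for it. Of the other settings, only the separate fit of each tissue moved a NAC014 call: the shoot change of -0.43 at 3 h was no longer called (adjusted p = 0.0530) and the root change of 0.30 at 12 h was called (0.0442). The cause was not tested. The 1 h shoot change lay between -0.82 and -0.36 over 9 settings and between -0.79 and -0.48 with 1 array left out, and was called in each. With 1 array left out, where the lone replicate is assumed to vary like the other groups, the 3 h shoot change lay between -0.65 and -0.21. The uncalled changes at 12 h in shoots (-0.30 to 0.02), 24 h in shoots (-0.11 to 0.21) and 24 h in roots (-0.02 to 0.13) changed sign without 1 of the 0.25 h replicates. With the replicate number as a block no NAC014 call changed (1 h in shoots -0.63, adjusted p = 0.00189). Replicate differences correlated between groups at -0.22 to 0.224, over 0.1 in 6 of 91 pairs. Array noise can keep such correlations low, so they cannot show whether shoots and roots of a replicate came from the same plants. The labels do not say so either. Signals near the array median limit what can be seen of NAC014, and dim signals that of ORA47 in roots and tny in shoots. The same settings for the genes of the target lists were added after the data were seen. They covered the called changes in shoots at 1, 3 and 6 h and in roots at 1 and 3 h. Called changes of these genes at other times were not tried with them.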
